A study of Mus musculus with 24 samples.

Results

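A group of 5 genes of central nervous system myelin, Mag, Mbp, Mobp, Mog and Cnp, was followed in the retina of C57Bl/6 mouse pups kept in hyperoxia or in room air. Every probe set that the platform annotation gives to exactly one of these 5 symbols was taken, which made 16 of the 22626 probe sets other than controls. Mbp had 8 probe sets, Mobp 3, Cnp 3, Mag 1 and Mog 1. Total retinal RNA was measured on 24 oligonucleotide arrays, 1 per sample, with 3 arrays in each of 8 groups. The groups were pups of postnatal day 7 after 12 hours, day 8 after 24 hours, day 10 after 72 hours and day 12 after 120 hours of hyperoxia, and room air pups of the same 4 ages. Age and hours of exposure rise together and cannot be told apart within the hyperoxia series. The oxygen concentration, the number of pups behind an array, and whether replicates were separate animals are not in the labels, so the tests weigh differences against a spread between arrays that may be technical.

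Myelin is the membrane sheath that oligodendrocytes wrap around axons. In the mouse the axons of retinal ganglion cells run unmyelinated inside the eye and become myelinated only in the optic nerve behind it, and oligodendrocytes are not normally resident in the retina. Mbp and Mobp encode small basic proteins of compact myelin, Mog a surface glycoprotein of the outermost myelin layer, Mag a sialic acid-binding adhesion protein of the membrane that faces the axon, and Cnp a phosphodiesterase of cyclic nucleotides found in non-compact myelin. The Mbp locus also makes golli transcripts from an upstream start, and these are known in neurons and immune cells. Which of the Mbp transcripts each probe set reads was not analysed here.

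The promoter windows of 4 of the genes are shown because those genes differed in level: the probe sets of Mag and Cnp were above the floor on all arrays, while Mobp and Mog stayed at it. The sequences are the 250 bases before the annotated start, from RefSeq, build GRCm38.p6, written 5′ to 3′ on the gene's strand. Of the 5 genes, 4 are shown. For Mag, which has 3 entries there, the window of the most upstream start is given. Capitals mark matches on either strand to ACAAAG (reverse complement CTTTGT), a core recognised by SOX factors such as SOX10 of the oligodendrocyte lineage, and to CTGGCAC or CTGGTAC (reverse complements GTGCCAG and GTACCAG), the motif of MYRF, the factor that oligodendrocytes need to switch on myelin genes. The capitals do not overlap between motifs.
Mag (chr7:30914923-30915172, - strand): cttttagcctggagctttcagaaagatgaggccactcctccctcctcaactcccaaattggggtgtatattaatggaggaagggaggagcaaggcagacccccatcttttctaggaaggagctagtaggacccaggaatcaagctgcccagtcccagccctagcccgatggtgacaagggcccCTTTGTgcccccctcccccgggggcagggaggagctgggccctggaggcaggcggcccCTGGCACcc
Cnp (chr11:100574689-100574938, + strand): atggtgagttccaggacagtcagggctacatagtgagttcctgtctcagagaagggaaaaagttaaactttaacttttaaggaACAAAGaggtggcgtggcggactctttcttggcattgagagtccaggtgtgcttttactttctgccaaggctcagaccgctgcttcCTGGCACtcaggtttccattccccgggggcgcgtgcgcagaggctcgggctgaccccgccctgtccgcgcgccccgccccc
Mobp (chr9:120149492-120149741, + strand): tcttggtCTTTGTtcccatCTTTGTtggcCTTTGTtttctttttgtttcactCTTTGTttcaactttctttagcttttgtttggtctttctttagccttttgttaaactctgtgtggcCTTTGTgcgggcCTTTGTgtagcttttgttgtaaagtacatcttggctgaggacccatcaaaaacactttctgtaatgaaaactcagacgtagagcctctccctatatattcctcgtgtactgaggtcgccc
Mog (chr17:37023399-37023648, - strand): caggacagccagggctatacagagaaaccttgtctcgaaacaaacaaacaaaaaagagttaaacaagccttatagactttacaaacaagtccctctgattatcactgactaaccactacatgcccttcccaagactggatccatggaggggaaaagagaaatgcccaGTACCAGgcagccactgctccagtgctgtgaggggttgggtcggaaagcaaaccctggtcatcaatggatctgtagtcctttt

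The Mobp window held 6 matches to ACAAAG, the Mag and Cnp windows 1 each and the Mog window 0. Of 32817 windows of the same length, those of mouse chromosome 18 left out, 16.5% held at least 1 such match, 0.0213% held 4 or more, and 6 was the highest count in any window, reached only by that of Mobp. A MYRF-type match in either form stood once in the Mag, Cnp and Mog windows and not in that of Mobp, against 5.92% of all windows. The motifs were chosen after the sequences had been seen. The matches are letters in a window and are not evidence of binding.

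Mobp and Mog gave no signal above the floor on any array. Values under a floor of 135.6, the 20th percentile of the deposited table, have no order and were raised to it, which is 7.08 on the log2 scale. The deposited intensity of the Mog probe set 1448768_at lay between 3.8 and 77.6 with a median of 9.95. The brightest Mobp probe set, 1421010_at, lay between 6.5 and 84.2, and the other two reached at most 22.5 and 31.5. All 4 probe sets were therefore at the floor on all 24 arrays, in hyperoxia and in room air and at each age.

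Mbp was split. Its probe sets 1436201_x_at and 1454651_x_at were at the floor on all 24 arrays, 1456228_x_at on 23, 1451961_a_at on 21 and 1433532_a_at on 12. The remaining 3, 1425264_s_at, 1425263_a_at and 1419646_a_at, were above it on every array, with median deposited intensities of 1379.75, 761.9 and 257.45. The same was true of all 3 Cnp probe sets, whose medians were 3736.15 for 1437341_x_at, 1323.05 for 1418980_a_at and 1399.15 for 1449296_a_at, and of the Mag probe set 1460219_at, with a median of 383.15 and a range of 165.1 to 703.8. These intensities belong to different probes and do not rank the genes.

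**Figure D1:**
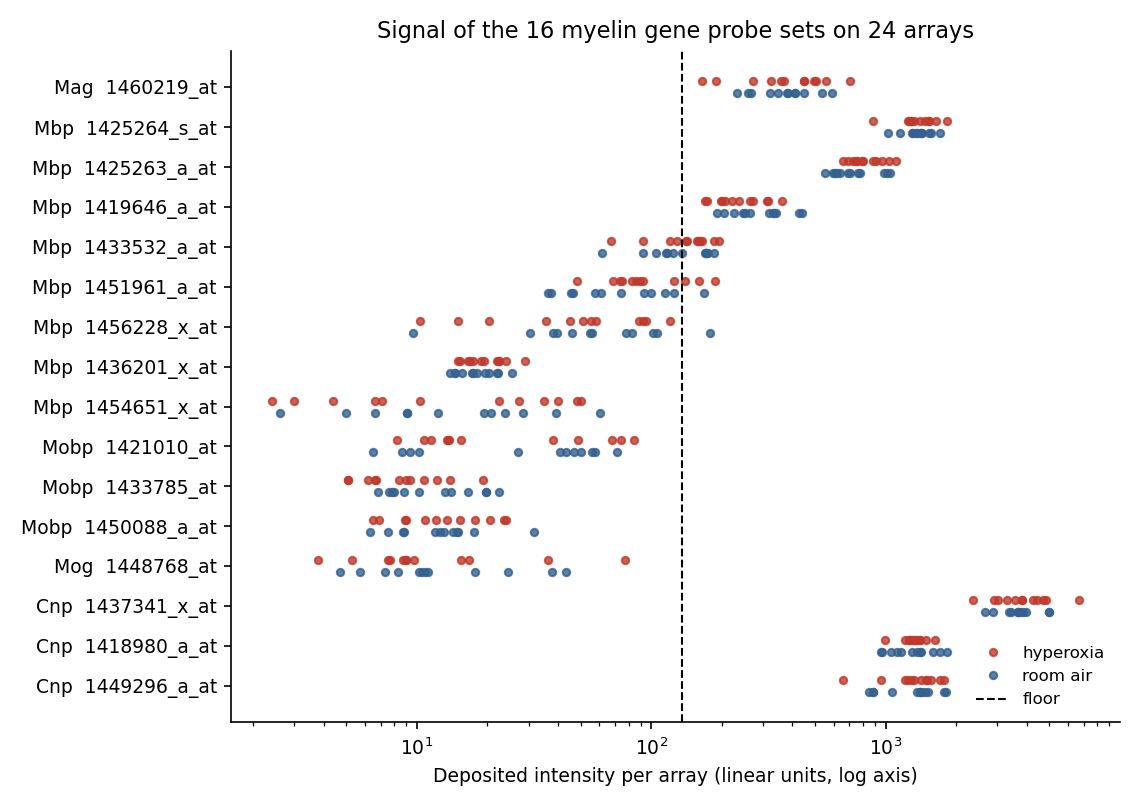
Deposited intensity of each of the 16 probe sets on each of 24 arrays (linear units on a log axis), hyperoxia arrays in red above room air arrays in blue; the dashed line is the floor at 135.6. The single Mog and the 3 Mobp probe sets lie left of the line on all arrays, while Mag, 3 of 8 Mbp and all 3 Cnp probe sets lie right of it.

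Other genes of oligodendrocytes showed the same mixture. Of 22 further myelin and mature oligodendrocyte genes, 15 were measured, and 4 of these, Cldn11, Gjb1, Nkx6-2 and Myrf, were at the floor on 20 or more arrays. Cldn11 is the tight junction protein of myelin and Gjb1 a connexin of oligodendrocytes. Transcription factors of the lineage were mixed: Nkx2-2 was at the floor on 23 arrays, Olig2 on 18 and Olig1 on 17, but Sox10 on 0. Of the 8 measured lineage and precursor genes, 5 were never at the floor. Genes of these lists above the floor on every array also included Pdgfra, the receptor of oligodendrocyte precursors that astrocytes of the retina also carry, Mal, Fa2h and Gpr37. As for the tissue, all 10 measured genes of the 12 chosen to define retina, such as the rod factor Nrl and the photoreceptor protein Rcvrn, were above the floor on all arrays. Transcripts of neighbouring tissues varied widely, and the mean log2 level of 12 tested lens genes ranged from 7.23 to 14.04 between arrays.

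Of the 16 probe sets, 7 passed the filter on dim probe sets (the 30th percentile of the means over all arrays) and were tested: Mag, 3 of Mbp and 3 of Cnp. Tests were contrasts in one limma fit over 15838 probe sets and all 24 arrays, with p-values adjusted by the Benjamini-Hochberg method over all of them, and an adjusted p under 0.05 counted as a call. Values below are normalized log2 intensities, and differences are log2 hyperoxia minus room air or log2 day 12 minus day 7, each followed by its standard error from that fit (n = 3 arrays a group). In bulk retina, fewer cells of a type and less RNA per cell cannot be told apart.

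Mag went through the widest swing of the 7. In hyperoxia its log2 values were 9.0, 8.32 and 8.42 at day 7, 7.51, 7.61 and 8.13 at day 8, 8.71, 8.49 and 8.80 at day 10, and 8.94, 9.34 and 9.06 at day 12. In room air they were 8.85, 8.45 and 8.91 at day 7, 9.11, 8.75 and 8.72 at day 8, 8.27, 8.12 and 8.58 at day 10, and 8.65, 8.04 and 8.40 at day 12. The hyperoxia series thus dipped at day 8 and stood highest at day 12, and in room air the 2 earlier ages were the higher ones. An F test of any difference among the days called Mag in hyperoxia (limma, F = 14.9, adjusted p = 0.00136), where 8.97% of all probe sets were called. The same test in room air did not call it (F = 3.32, unadjusted p = 0.0412, adjusted p = 0.206; 8.96% of all probe sets were called). The call in hyperoxia held under all 9 alternative settings that gave a value and without any 1 of the 12 hyperoxia arrays, with adjusted p between 0.00081 and 0.0326.

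Set against room air at the same age, Mag averaged 7.75 ± 0.33 after 24 hours of hyperoxia and 8.86 ± 0.22 in room air at day 8 (SD, n = 3 each). All 3 hyperoxia arrays lay below all 3 room air arrays. The difference was -1.11 ± 0.21, or 0.464 times the room air level, with a 95% interval of -1.54 to -0.67 (limma, adjusted p = 0.0449), and Mag was the 1 of 7 probe sets called. Over all probe sets 0.0821% were called at day 8, all of them lower. Mag was dim on these hyperoxia arrays, with deposited intensities of 165.1, 188.5 and 272.3 beside the floor of 135.6. With the floor at the 40th percentile the Mag difference was -0.24 (limma, adjusted p = 0.955). Lens transcripts moved with this contrast: the mean log2 level of the lens genes was 8.74, 7.78 and 7.47 on the hyperoxia arrays of day 8 and 13.05, 10.77 and 8.68 on the room air arrays. All 12 were lower in hyperoxia, with a median difference of -3.15, and 0 were called. These 12 genes belong to the same tissue and were read on the same arrays, so their signs are not independent. With that level as a covariate the Mag difference was -1.05 and its adjusted p 0.199. The call also ended without room air replicate 1, 2 or 3 or hyperoxia replicate 1 or 2 of day 8 (adjusted p = 0.327, 0.138, 0.0987, 0.329 and 0.35, with differences of -0.98 to -1.18), and held without hyperoxia replicate 3 (adjusted p = 0.0251).

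At day 12 the order was the opposite. Mag averaged 9.12 ± 0.21 after 120 hours of hyperoxia and 8.36 ± 0.31 in room air, and again no array of one group reached the other. The difference of 0.75 ± 0.21, or 1.69 times the room air level, had an unadjusted p of 0.00175 and ranked 77th of 15838, but did not pass (limma, adjusted p = 0.351). At day 7 the means were 8.58 ± 0.37 in hyperoxia and 8.73 ± 0.25 in room air (-0.15 ± 0.21), and at day 10 they were 8.67 ± 0.16 in hyperoxia and 8.32 ± 0.24 in room air (0.35 ± 0.21). On both days the groups overlapped. Averaged over the 4 days the difference was -0.04 ± 0.10, since the signs were opposed. Lens genes mostly had the sign of Mag on these days too. In hyperoxia 9 of 12 were lower at day 7, and all 12 were higher at day 10 and at day 12. Their median differences were -0.6, 0.68 and 1.01, and 0 were called on each day. At day 12 the mean lens level was 7.82, 13.80 and 13.97 in hyperoxia and 7.23, 11.19 and 14.04 in room air, so the groups overlapped.

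Whether the oxygen difference itself changed with the day was asked of every probe set with an F test. Mag had the lowest p of all 15838 (limma, F = 14.9, unadjusted p = 2.8e-05), yet the adjusted p was 0.311. Of all probe sets 0% were called, with 1038 at an unadjusted p under 0.05. Its oxygen difference at day 12 exceeded that at day 7 by 0.91 ± 0.29, which did not pass either (adjusted p = 0.716). The adjusted p of the F test stayed between 0.0839 and 0.59 under the alternative settings and the fits without 1 array.

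**Figure D2:**
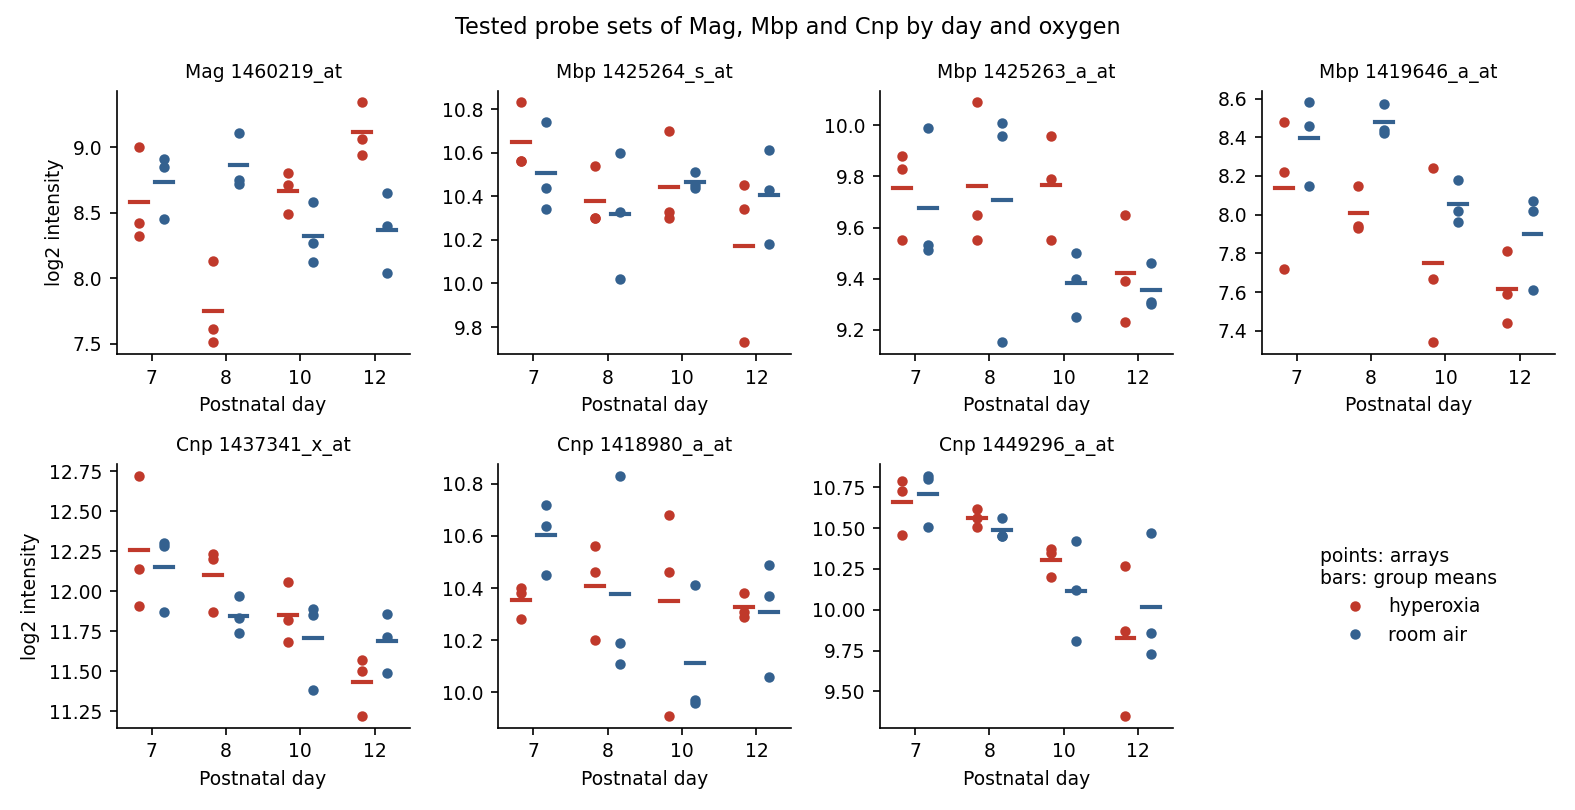
Normalized log2 intensity of the 7 tested probe sets by postnatal day, hyperoxia (red) left of room air (blue), with 1 point per array and a bar at each group mean; each panel has its own axis. Mag dips in hyperoxia at day 8, at 7.51 to 8.13 against 8.72 to 9.11 in room air, and Cnp 1437341_x_at and 1449296_a_at lie lower at day 12 than at day 7.

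In the order of group means Mag ran from hyperoxia at day 12 (9.12), through room air at day 8 (8.86) and day 7 (8.73), hyperoxia at day 10 (8.67) and day 7 (8.58), and room air at day 12 (8.36) and day 10 (8.32), to hyperoxia at day 8 (7.75). Steps between neighbours were 0.26 at the top and 0.57 at the bottom, both larger than the SD of either neighbour. The 5 steps between them were 0.04 to 0.22 and lay within it. The ranges of neighbouring groups overlapped at every step.

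**Figure D3:**
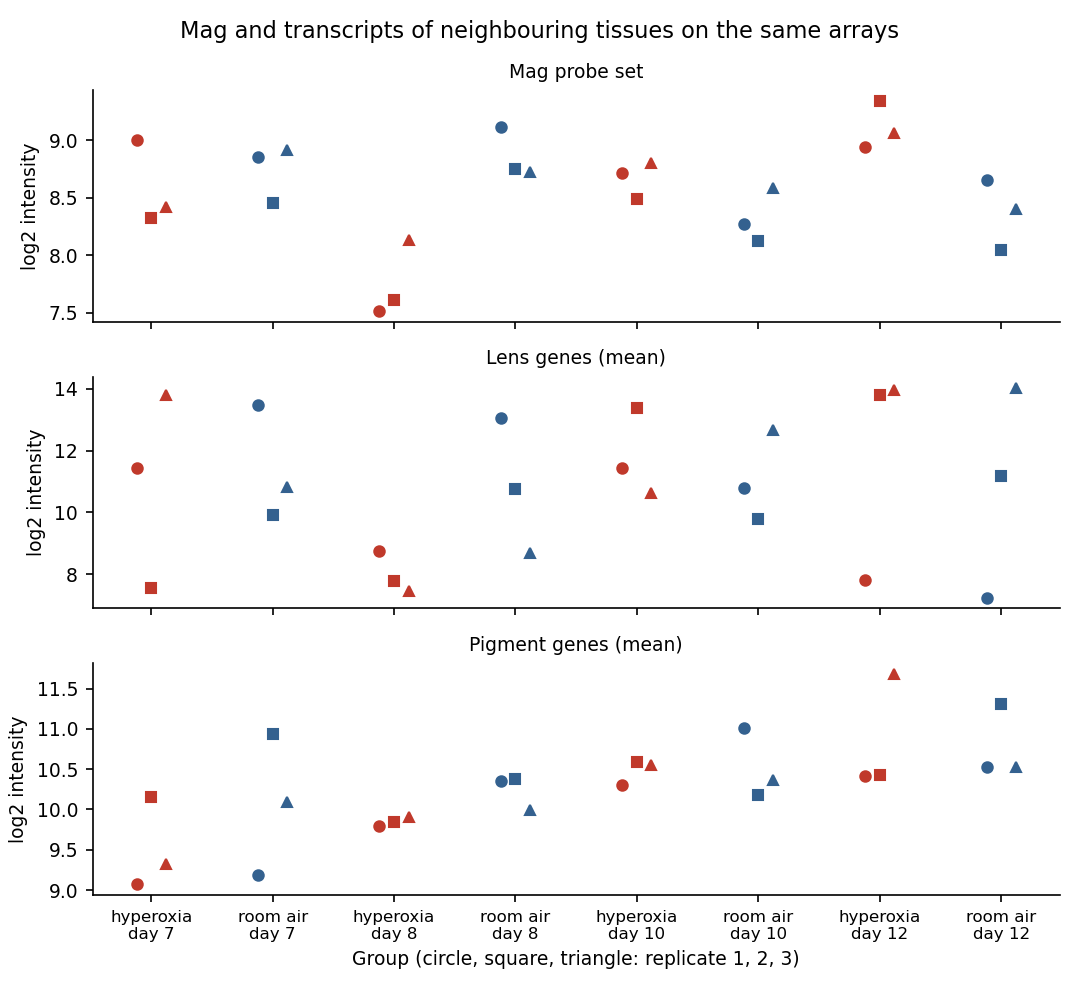
Log2 intensity of Mag (top), mean of 12 lens genes (middle) and mean of 9 pigment epithelium and melanocyte genes (bottom) on the same arrays, by group, with hyperoxia in red and room air in blue and 1 symbol per replicate. Lens levels are low on all 3 hyperoxia arrays of day 8, at 7.47 to 8.74, where Mag is at 7.51 to 8.13; the part of lens tissue in the Mag difference was not tested beyond a covariate.

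The lens level of single arrays stood beside Mag as follows, and the part of lens tissue in the Mag result was not tested beyond the covariate above. Hyperoxia replicate 1 of day 12 had a lens level of 7.82 and Mag at 8.94, and hyperoxia replicate 2 of day 7 a lens level of 7.56 and Mag at 8.32. In hyperoxia at day 8 the lens level was 7.47 to 8.74 and Mag 7.51 to 8.13. Room air replicate 3 of day 8 had a lens level of 8.68, within that range, and Mag at 8.72. Room air replicate 1 of day 12 had the lowest lens level of all arrays, 7.23, and Mag at 8.65. Among arrays with high lens levels, hyperoxia replicates 2 and 3 of day 12 had 13.80 and 13.97, with Mag at 9.34 and 9.06. Room air replicate 1 of day 8 had 13.05, with Mag at 9.11. Mag was lower on room air replicate 3 of day 12 (lens 14.04, Mag 8.40) and hyperoxia replicate 3 of day 7 (lens 13.79, Mag 8.42). Between these stood room air replicate 1 of day 7 (lens 13.47, Mag 8.85) and hyperoxia replicate 2 of day 10 (lens 13.39, Mag 8.49). The arrays were named after their values were seen. The mean of the 9 tested pigment epithelium and melanocyte genes was 9.79 to 9.91 on the hyperoxia arrays of day 8 and 9.99 to 10.38 on the room air arrays. With it as a covariate the Mag difference was -1.19 (adjusted p = 0.0186).

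The other tested probe sets did not share the day 8 difference of Mag. Mbp 1419646_a_at came nearest, at 7.93, 8.15 and 7.94 in hyperoxia and 8.57, 8.44 and 8.42 in room air. Its groups did not overlap and its difference was -0.47 ± 0.20, but it did not pass (limma, unadjusted p = 0.0327, adjusted p = 0.964). At this day 2 of 7 probe sets had groups that did not overlap, against 9.96% of all. The remaining 2 Mbp and 3 Cnp probe sets had differences of 0.03 to 0.25. The intervals of the 3 Cnp probe sets at day 8 ran from -0.38 at the lowest to 0.65 at the highest, so a difference of the size of that of Mag lay outside them.

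At days 7, 10 and 12 none of the 7 probe sets was called (0 each, limma; at an unadjusted p under 0.05 there were 0, 0 and 1), where 0.0631%, 0.0631% and 0.0126% of all probe sets were. The median difference of the 7 was -0.05 at day 7, 0.05 at day 8, 0.19 at day 10 and -0.19 at day 12, beside medians of 0.01, 0, 0 and 0 over all tested probe sets. Groups without overlap were found once at each of these 3 days: Cnp 1418980_a_at at day 7 (-0.25 ± 0.20), Mbp 1425263_a_at at day 10 (0.38 ± 0.20) and Mag at day 12. Such groups were found for 7.05%, 21.5% and 11.7% of all probe sets on those days.

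Over the 4 days Mbp 1419646_a_at was lower in hyperoxia on every day, by -0.26, -0.47, -0.30 and -0.29 in order of age. Its average difference was -0.33 ± 0.10, or 0.796 times the room air level (limma, unadjusted p = 0.00417, adjusted p = 0.259). The same gene's 1425263_a_at was at 0.15 ± 0.10 and 1425264_s_at at -0.01 ± 0.09 on average. Their intervals, -0.07 to 0.36 and -0.2 to 0.18, included 0, so neither had a clear sign. None of the 7 was called on average (0, limma, with 1 at an unadjusted p under 0.05), against 0.492% of all probe sets. The 3 Cnp probe sets stood at 0.01 to 0.06 on average, with intervals that reached from -0.21 to 0.26.

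**Figure D4:**
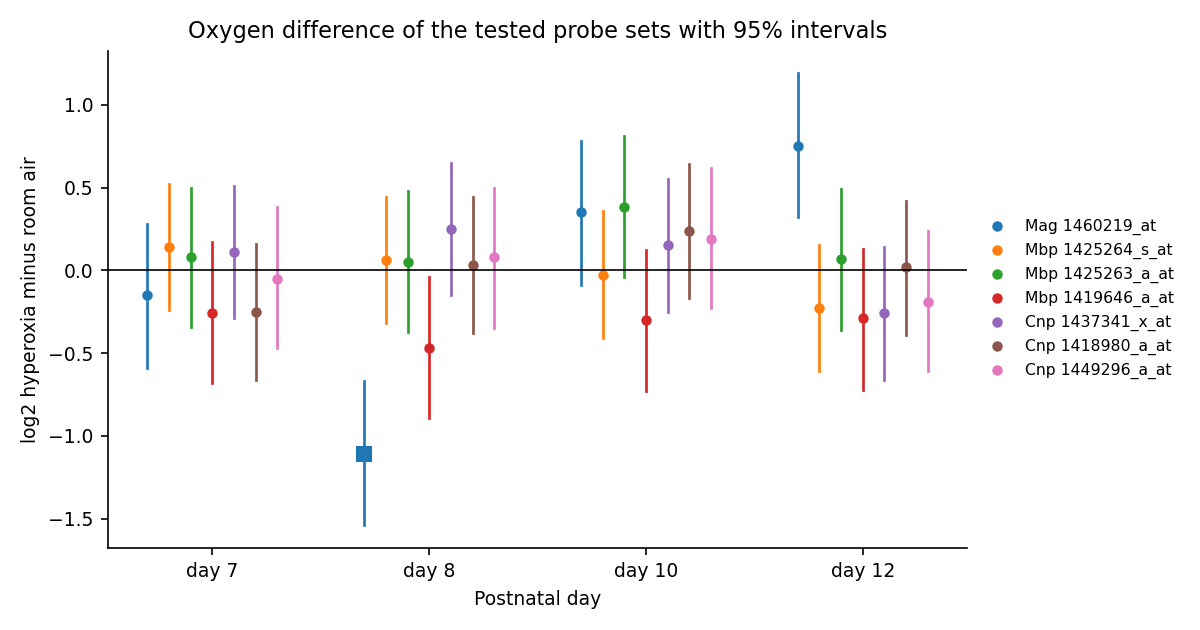
Log2 hyperoxia minus room air for the 7 tested probe sets at each postnatal day, with 95% intervals of the limma fit; the square is the 1 called value. Mag lies at -1.11 at day 8 and at 0.75 at day 12, while the intervals of all 7 probe sets at days 7 and 10, of 6 at day 12 and of 5 at day 8 include 0.

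By 2 of its 3 probe sets Cnp fell with age in hyperoxia, and by 1 in room air. In hyperoxia its brightest probe set, 1437341_x_at, read 11.50, 11.22 and 11.57 at day 12 and 12.72, 11.91 and 12.14 at day 7. The groups did not overlap, and Cnp fell by 0.83 ± 0.19 on the log2 scale, to 0.564 times the day 7 level (limma, adjusted p = 0.00653). The second probe set, 1449296_a_at, also fell by 0.83 in hyperoxia (± 0.20, adjusted p = 0.00954), with 9.35, 10.27 and 9.87 at day 12 and 10.46, 10.73 and 10.79 at day 7. The third, 1418980_a_at, was at -0.03 ± 0.20 and did not pass. In hyperoxia 2 of 7 probe sets were called, both lower, against 12.6% of all probe sets called and 6.64% called lower. Groups without overlap were found for 3 of 7, all lower at day 12, against 26.4% of all in either direction and 14.8% lower.

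In room air 1449296_a_at read 9.86, 10.47 and 9.73 at day 12 and 10.80, 10.51 and 10.82 at day 7, and it fell by 0.69 ± 0.20 (limma, adjusted p = 0.0302). For 1437341_x_at the room air difference was -0.46 ± 0.19 (adjusted p = 0.127) and for 1418980_a_at -0.29 ± 0.20 (adjusted p = 0.376). So 1 of 7 probe sets was called, lower, against 12.4% of all probe sets called and 5.2% called lower. Groups without overlap were found for 4 of 7, all lower at day 12, against 28.3% of all in either direction and 14.3% lower. The age difference in hyperoxia was not shown to differ from that in room air: the difference between these differences was -0.36 ± 0.27 for 1437341_x_at (adjusted p = 0.857) and -0.14 ± 0.29 for 1449296_a_at (adjusted p = 0.946). All 3 calls ended with the pigment gene level as a covariate (limma, adjusted p = 0.0553, 0.0577 and 0.0529) with differences of -0.86 ± 0.25, -0.90 ± 0.27 and -0.73 ± 0.23. These differences were no smaller than without the covariate, and their standard errors were larger. Of the 9 tested pigment genes, 8 were higher at day 12 than at day 7 in hyperoxia, and 4 were called (Rdh5, Rgr, Rpe65 and Ttr). Differences over the list were -0.12 to 2.38, with a median of 1.22. In room air all 9 were higher and 1 was called, Ttr, with differences of 0.13 to 1.37 and a median of 0.61. Over all probe sets 5.95% were called higher in hyperoxia and 7.15% in room air, and the median difference was -0.03 in both. Without hyperoxia replicate 1 of day 12 the fall of 1449296_a_at in hyperoxia was 0.59 and did not pass (adjusted p = 0.0624), and its room air call ended without replicate 1 or 3 of day 12 or replicate 1 or 3 of day 7 (adjusted p = 0.108, 0.132, 0.0914 and 0.112).

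The means of Cnp 1449296_a_at were lower at each later age in both conditions. In hyperoxia its means were 10.66 ± 0.18, 10.56 ± 0.06, 10.31 ± 0.09 and 9.83 ± 0.46 at days 7, 8, 10 and 12, and in room air 10.71 ± 0.18, 10.49 ± 0.06, 10.11 ± 0.30 and 10.02 ± 0.40 (SD, n = 3 each). The F test among the days called it in hyperoxia (adjusted p = 0.0359) and not in room air (adjusted p = 0.0834). It also called 1437341_x_at in hyperoxia (adjusted p = 0.0291), whose means were 12.26, 12.10, 11.85 and 11.43 at the 4 days in hyperoxia and 12.15, 11.85, 11.71 and 11.69 in room air. Both calls of this test ended with the pigment gene level as a covariate (adjusted p = 0.198 and 0.212) and without hyperoxia replicate 1 of day 12 (adjusted p = 0.19 and 0.0709). The call of 1437341_x_at further ended without hyperoxia replicate 2 or 3 of day 12 or replicate 3 of day 8 (adjusted p = 0.134, 0.055 and 0.0502), and with the lens level as a covariate (adjusted p = 0.0569). That of 1449296_a_at ended without hyperoxia replicate 3 of day 12, replicate 2 or 3 of day 7, or replicate 2 or 3 of day 8 (adjusted p = 0.0979, 0.0715, 0.0792, 0.057 and 0.0613). The third probe set, 1418980_a_at, had hyperoxia means of 10.35, 10.41, 10.35 and 10.32.

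No Mbp probe set passed the test for age, and all 3 tested probe sets were lower at day 12 than at day 7 in both conditions. Mbp 1419646_a_at was at 7.61 ± 0.19 at day 12 and 8.14 ± 0.39 at day 7 in hyperoxia, and at 7.90 ± 0.26 at day 12 and 8.40 ± 0.22 at day 7 in room air. The differences were -0.53 ± 0.20 and -0.50 ± 0.20 (limma, adjusted p = 0.0982 and 0.122). For 1425264_s_at the difference was -0.48 ± 0.18 in hyperoxia (adjusted p = 0.097) and -0.10 ± 0.18 in room air, and for 1425263_a_at it was -0.33 ± 0.20 in hyperoxia and -0.32 ± 0.20 in room air. Mag was the exception in hyperoxia, at 0.54 ± 0.21 (adjusted p = 0.103), and in room air it was at -0.37 ± 0.21 (adjusted p = 0.275). Without hyperoxia replicate 1 of day 7, Mag in hyperoxia was at 0.75 (adjusted p = 0.0332) and Mbp 1419646_a_at at -0.74 (adjusted p = 0.0301), and both passed.

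Among the 7 further myelin and oligodendrocyte genes tested, 0 were called in hyperoxia against room air at any of the 4 days, with a median difference of -0.05 at day 8. The nearest at that day was Evi2a, at 0.41 ± 0.23 (limma, adjusted p = 0.964). Of the 5 tested lineage and precursor genes 0 were called at any day. Cspg4, the NG2 proteoglycan, had the lowest p of them at day 12, at -0.35 ± 0.17 (limma, adjusted p = 0.57), and which cells its signal came from was not tested. For day 12 minus day 7, 1 of the 7 was called higher in each condition: Gpr37, a receptor of oligodendrocytes and other cells. Its difference was 0.38 ± 0.11 in hyperoxia (limma, adjusted p = 0.0303) and 0.37 ± 0.11 in room air (adjusted p = 0.0403). A count of 1 of 7 is near the 12.6% and 12.4% of all probe sets called in hyperoxia and in room air (5.95% and 7.15% called higher). The F test among the days also called 1 of the 7 in each condition. It was Gpr37 in hyperoxia (limma, adjusted p = 0.0298) and Pllp in room air (adjusted p = 0.0236), against 8.97% and 8.96% of all probe sets. Of the 2 tested Schwann cell genes, Pmp22 and Ncmap, 0 were called in these comparisons.

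The 7 probe sets shared little of their variation between arrays. Over the 24 arrays, which share the 8 groups, the correlation of Mag with the 6 other tested probe sets was between -0.23 and 0.09. Among different genes the closest pair was Mbp 1419646_a_at with Cnp 1449296_a_at (r = 0.61). Probe sets of the same gene correlated at 0.40 to 0.62 for Cnp and at 0.08 to 0.24 for Mbp. When the group means were subtracted the correlations between Cnp probe sets were 0.01 to 0.39.

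The genes most like each member over the 24 arrays were sought among the other tested probe sets with 1 symbol, with correlation as the measure of likeness. For Mag they were Clcn5 (r = 0.73), Gsk3a (0.71) and Map3k12 (0.70), for Mbp 1425264_s_at Ugp2 (0.78), Acot1 (0.75) and Mxd4 (0.74), and for Cnp 1437341_x_at Cnn3 (0.85), Rhno1 (0.84) and Simc1 (0.83). None of these 9 stands in an oligodendrocyte list. The mean of these 3 representative probe sets was most like St8sia2 (0.80), St14 (0.79), Cnn3 (0.76), Zfp362, Mettl9, Adam10, Sbk1, Nr2f1, Atf4 and Fbh1 (0.70 to 0.74). By deviations from the group means the 10 nearest were Slc38a10 (0.83), Fam76a (0.81), Mcl1 (0.80), Adh5, Rbmxl1, Pnrc2, Etf1, Smad4, Rfc3 and Thoc7 (0.72 to 0.77), none of which is among the genes just named for the log2 values. These are the highest correlations among 9266 tested genes and are given as a description.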

How the data were processed

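Retinal total RNA of 24 mouse samples was deposited by the authors as linear intensities, 22690 probe sets an array, 64 of them controls. Software for this step is not given in the sources used here. Array means trimmed by 2% at each end were nearly equal in these values, which points to a common scaling, and medians spanned 0.253 in log2. The number of arrays limits the precision.

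Intensities were quantile normalized, raised to the floor of 135.6 and taken to log2. Probe sets with a mean under the 30th percentile were left out, which left 15838. Gene names came from the platform annotation supplied with the series; only probe sets with exactly 1 symbol were named. All contrasts were made in a single fit with limma 3.58.1 under R 4.3.3, which had 16 residual and 3.55 prior degrees of freedom, checked on simulated data. Where 1 value per gene was needed, the brightest probe set was used. Of each gene list, called members and up to 4 with the lowest p were eligible for naming; likeness was ranked by correlation over 24 arrays. Lists were chosen from general knowledge. The members and lists were chosen with earlier results of these data known. Alternatives changed the scaling, floor, filter, arrays fitted, variance prior, replicate block and covariates, and left out each array. Same-numbered hyperoxia and room air arrays of a day deviated together (correlation over 0.1) in all 3 pairs of day 12 (0.234 to 0.445) and in 2 of the 9 pairs of the other days. The numbers were therefore treated as pairs at day 12 only, a choice made from these same correlations. Whether the samples were paired is not in the labels and was not tested. A block within day 12 was added after seeing the data. Figures used matplotlib 3.10.9 in Python 3.11.15.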

Additional observations from a re-analysis of the deposited data

Results flagged for a closer look

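Mag differed from room air in opposite directions on different days, with every hyperoxia array on one side of every room air array each time. Groups without overlap were found for 9.96% of all probe sets at day 8 and 11.7% at day 12. The difference was -1.11 at day 8 (limma, adjusted p = 0.0449), a call that was lost in 5 of 6 fits without 1 array of that day. It was 0.75 at day 12 and did not pass (limma, adjusted p = 0.351; log2 hyperoxia minus room air). The difference between these particular days was not tested. The F test of any change in the oxygen difference among the 4 days gave Mag the lowest p of all probe sets (unadjusted p = 2.8e-05) but did not pass (limma, adjusted p = 0.311). All 12 tested lens genes had the sign of Mag on both days, with median differences of -3.15 at day 8 and 1.01 at day 12. Their signs are not independent, and the mean lens levels of hyperoxia and room air arrays overlapped on both days. The part of lens tissue in the Mag differences was not tested beyond a covariate. Groups of 3 arrays are too small to look for single outlying arrays.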

How the results depend on the processing

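The count of called probe sets among the 7 tested depended on the processing in 5 of the 11 comparisons. At day 8 the 1 call, Mag, became 0 with no filter on dim probe sets, with the filter at the 50th percentile (which removes Mag itself), with the floor at the 40th percentile (which lies above part of the Mag values), with the robust prior (adjusted p = 0.0521), with lens genes as a covariate and with only the 6 arrays of day 8. Under these settings the Mag difference was -1.11 to -1.05, except with the higher floor, where it was -0.24. Without 1 array the count at day 8 was 0 to 1. For day 12 minus day 7 the counts of 2 in hyperoxia and 1 in room air became 0 with only the arrays compared and 0 with the pigment gene level as a covariate; without 1 array they were 1 to 4 in hyperoxia and 0 to 1 in room air. The 3 calls of the F test among the days in hyperoxia became 1, Mag, with no filter, with only the hyperoxia arrays and with the pigment level; without 1 array they were 1 to 3. In room air this test made 0 calls and, without 1 array, 0 to 1, the 1 being Cnp 1449296_a_at without room air replicate 2 of day 12 (adjusted p = 0.0239). In the other 6 comparisons the count was 0 under each alternative run. No called value changed sign. The cause was not tested except where named. With the replicate block no call of the 77 results of single probe sets changed: the counts were again 1 at day 8, 2 and 1 for day 12 minus day 7 in hyperoxia and room air, 3 for the F test in hyperoxia, and 0 elsewhere. A replicate block within day 12 only, where all 3 same-numbered pairs correlated, left the count at 0 and Mag at 0.75 (adjusted p = 0.311). Same-numbered arrays correlated at -0.31 to 0.445 in their deviations, and 5 of 12 hyperoxia arrays correlated best with their own number. The 9 dim member probe sets gave no call when tested without the filter. For members at the floor the arrays give only an upper bound on signal.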
